A study of Mus musculus with 37 samples.

Results

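The 40 DNA repair genes described here were found by symbol from a list of repair factors and were grouped by pathway. Base excision repair had 10 genes, break sensing with its checkpoint and homologous recombination 14, end joining with the chromatin factors of break sites 10, mismatch repair 2 and nucleotide excision repair 4. All 40 were among the 24421 gene symbols of the count table, and all 40 passed the filter on low counts. RNA was sequenced from lung tissue of 37 C57BL/6 mice of both sexes, 1 library per mouse, and their age and the delay from exposure to dissection were not known here. Silicon mice (n = 7) received 0.75 Gy of silicon ions at 300 MeV/u, and silicon + NR mice (n = 6) received the same ions while drinking 12 mM nicotinamide riboside (NR), a precursor of NAD, in their water from before the exposure. GCR mice (n = 7) received 0.75 Gy of mixed ions, a reduced simulation of galactic cosmic rays, gamma mice (n = 5) received 0.75 Gy of caesium gamma rays, mock + NR mice (n = 5) drank NR at 0 Gy, and mock mice (n = 7) had 0 Gy and no NR.

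Ionising radiation breaks DNA strands and damages bases, and each pathway answers a different lesion. In base excision repair a glycosylase removes a damaged base, an endonuclease cuts the strand, and a polymerase and a ligase fill and seal the gap on a scaffold of Xrcc1. Double-strand breaks are sensed by the Mre11a, Rad50 and Nbn complex and by the kinase Atm, and are joined end to end by the Ku proteins and their ligase, or copied from the sister chromatid by recombination in dividing cells. Nucleotide excision repair cuts out bulky lesions, with Ercc2 as a helicase that opens the DNA and Ercc1 with Ercc4 as the nuclease of the 5′ cut. NAD is the substrate that Parp1 and Parp2 spend at strand breaks.

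Total counts ran from 9485197 to 66381526 per library (median 28476462). Genes with at least 1 count numbered 16168, 17074, 17384 and 16452 in GCR replicates 1, 2, 5 and 6. In the other libraries they numbered 17930 to 19243. The pieces of lung differed in what they held. Skeletal muscle actin Acta1 exceeded 1000 CPM (counts per 1000000 of the library) in 13 libraries, namely 0 of 7 GCR, 2 of 6 silicon + NR, 5 of 7 silicon, 0 of 5 gamma, 2 of 5 mock + NR and 4 of 7 mock. The ribosomal RNA precursor Rn45s exceeded 100000 CPM in GCR replicates 2, 5 and 6 and in mock replicate 4. The lymphoid stroma chemokine Ccl19 exceeded 100 CPM in silicon replicates 3 and 6 and in mock + NR replicate 4, and the atrial gene Nppa exceeded 10000 CPM in gamma replicates 3 and 4. The lung's own markers were present in every library, with surfactant genes of alveolar type 2 cells at 1760 to 42999 summed CPM and club cell genes at 25522 to 309345 summed CPM. In 1 of the 15 libraries labelled female, gamma replicate 5, the Y-linked gene Ddx3y was above Xist. In tissue RNA, fewer cells of a type and less RNA per cell cannot be told apart.

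Across the 40 repair genes in lung, H2afx had the highest level and Brca1 the lowest. Levels below are CPM scaled by the TMM factor of each library, and to compare genes they were divided by the kilobases of exon. H2afx, the histone variant that is phosphorylated around breaks, was highest at 16.2 TMM-scaled CPM per kilobase (7.92 to 36.6 over the 37 libraries). The Ku subunit Xrcc5 averaged 12.8 TMM-scaled CPM per kilobase, the gap-filling polymerase Polb 10.8 and Nbn of the break-sensing complex 10.6. At the other end stood the Fanconi anaemia gene Fancd2 at 0.333 TMM-scaled CPM per kilobase, the Brca2 partner Palb2 at 0.238 and Brca1 at 0.234. The ranges of H2afx (7.92 to 36.6), Xrcc5 (8.69 to 18.4), Polb (6.69 to 21.2) and Nbn (6.81 to 16.4) overlapped, so neighbours in this order were not separated by their spread over libraries.

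In base excision repair Polb was highest and the adenine glycosylase Mutyh lowest at 1.32 TMM-scaled CPM per kilobase. Among the end-joining genes H2afx was highest and the kinase Prkdc lowest at 1.40. Msh6, which recognises mismatches, averaged 4.75 and Pms2, which cuts the strand that carries them, 0.817. In nucleotide excision repair Xpa, which checks the damaged strand, was highest at 8.68 and Ercc2 lowest at 1.42. In break sensing and recombination Nbn was highest and Brca1 lowest.

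**Figure D1:**
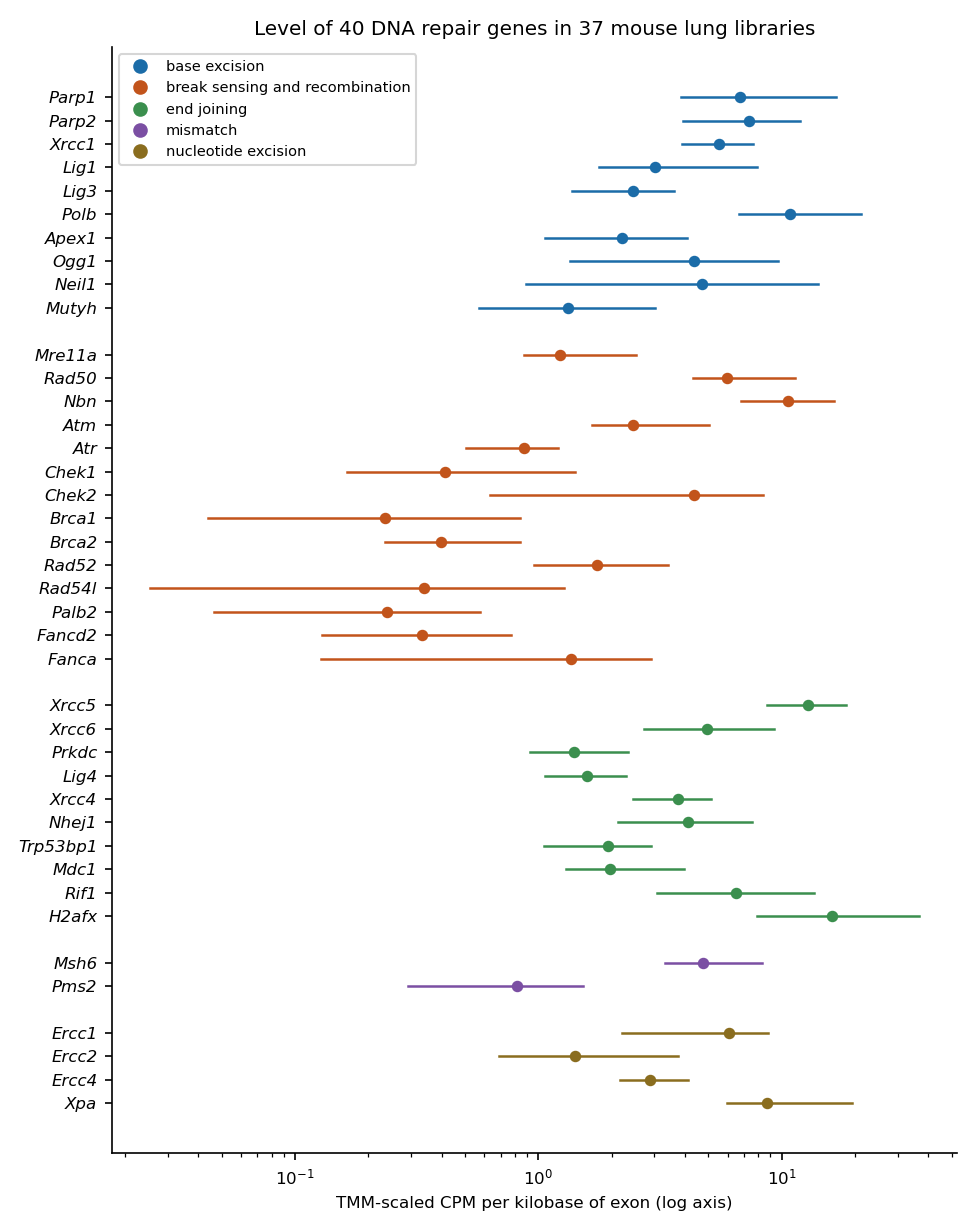
Mean level of each of the 40 repair genes over 37 libraries, in TMM-scaled CPM per kilobase of exon on a log axis, with a line from the lowest to the highest library and colours for pathways. H2afx at 16.2 and Brca1 at 0.234 mark the ends of the order, and Rad54l has the longest line.

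The genes also differed in how steady they were among mice of 1 group. The biological coefficient of variation, the spread between libraries of a group beyond counting error, had a median of 0.243 over the 40 genes and 0.332 over the 16977 genes tested. It was lowest for Xrcc1, the base excision scaffold, at 0.149, and for the nuclease subunit Ercc4 at 0.157. It was highest for Rad54l, a motor protein of recombination, at 0.528 and for Fanca of the Fanconi core complex at 0.489. Single libraries held many of the extremes. Silicon replicate 3, a lymphoid-rich library, had the highest level of 13 of the 40 genes. GCR replicate 1, the library with the fewest genes detected, had the lowest level of 12. GCR replicate 6, a high-Rn45s library with the next fewest genes detected, had the highest of 5 and the lowest of 7. Extremes were not counted over all genes, so these counts may not be particular to repair genes.

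After the simulated cosmic rays, against mock, the nuclease subunit Ercc1 and the end-joining factor Xrcc4 fell and the helicase Ercc2 rose. These were 3 of 40 genes (7.5%), by edgeR's quasi-likelihood test with Benjamini-Hochberg adjustment over all genes at an adjusted p under 0.05. Over all genes tested 16.6% were called, 8.03% higher and 8.52% lower, so the share among repair genes was below the background. The median log2 fold change was -0.13 over the 40 genes, with 16 above 0 and 24 below, and -0.06 over all genes, of which 45.1% were above 0. No repair gene had groups that did not overlap, as 0.854% of all genes had in either direction.

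Ercc1 (mm10, chromosome 7, 19344778 to 19356524, plus strand), which with Ercc4 cuts the damaged strand, had a lowest, median and highest level of 6.86, 11.3 and 20.4 TMM-scaled CPM in GCR mice, against 17.3, 21.9 and 24.2 in mock mice. It averaged 12.4 ± 4.90 in GCR mice and 21.7 ± 2.10 in mock mice (SD, n = 7 each). Of the 7 GCR libraries, 6 lay below the lowest mock library, and GCR replicate 4 lay inside the mock range. The log2 fold change was -0.82 (SE 0.18, adjusted p = 0.00709, edgeR).

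Ercc2 (mm10, chromosome 7, 19382010 to 19395694, plus strand), the helicase of the transcription and repair factor TFIIH, lies close to Ercc1 on the same chromosome and rose. Its lowest, median and highest levels were 4.17, 7.82 and 15.7 TMM-scaled CPM in GCR mice, against 2.87, 4.54 and 8.84 in mock mice. The highest 3 GCR libraries were replicates 2, 5 and 6 at 15.7, 15 and 10.7, and the highest mock library was replicate 4 at 8.84, and these 4 are the high-Rn45s libraries. The same 3 GCR libraries had the lowest Ercc1 levels, at 8.11, 9.53 and 6.86. The log2 fold change was 1.02 (SE 0.27, adjusted p = 0.0159, edgeR).

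Xrcc4 (mm10, chromosome 13, 89774027 to 90089608, minus strand), the partner of the ligase Lig4, averaged 12.9 ± 1.91 TMM-scaled CPM in GCR mice and 16.2 ± 2.54 in mock mice (SD, n = 7 each). Its ranges overlapped, at 10.4 to 15.6 in GCR mice and 12.6 to 18.8 in mock mice. The log2 fold change was -0.34 (SE 0.12, adjusted p = 0.0447, edgeR), and leaving out each library in turn kept the call in 4 of 14 fits, against 13 of 14 for Ercc2 and 14 of 14 for Ercc1. With voom and sample weights Ercc1 was still called at -0.51 (adjusted p = 0.0233), while Ercc2 stood at 0.55 (adjusted p = 0.0827) and Xrcc4 at -0.18 (adjusted p = 0.244), and Nbn was called at -0.40 (adjusted p = 0.0403), in a fit that called 1516 of all genes.

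The high-Rn45s libraries moved with these 3 results. Without them, with 4 GCR and 6 mock mice left, the log2 fold change of Ercc1 was -0.50 (adjusted p = 0.255, edgeR), that of Ercc2 was 0.49 (adjusted p = 0.283) and that of Xrcc4 was -0.22 (adjusted p = 0.373), and 0 of all genes tested were called. The sign of each was kept. With Rn45s itself left out of the table, Xrcc4 stood at -0.28 (adjusted p = 0.0999, edgeR) and Ercc1 and Ercc2 stayed called. Without the muscle-rich libraries, with 7 GCR and 3 mock mice left, the 3 log2 fold changes were -0.78, 1.27 and -0.34 with adjusted p from 0.16 to 0.211 (edgeR). The part of pre-ribosomal RNA and muscle content in these results was not tested further, and that of the number of genes detected was not tested.

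**Figure D2:**
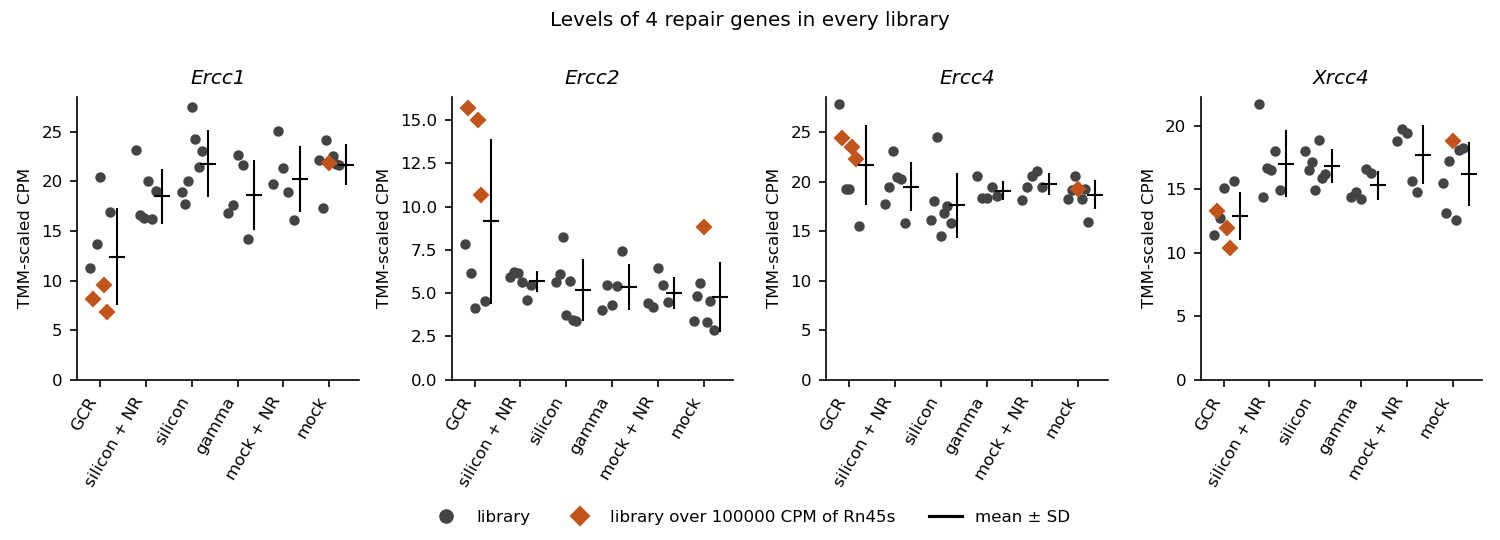
Level of Ercc1, Ercc2, Ercc4 and Xrcc4 in every library of the 6 groups, in TMM-scaled CPM, with the mean and SD beside each group. Orange diamonds are the 4 libraries over 100000 CPM of Rn45s, whose 3 GCR members have the highest Ercc2 levels (10.7 to 15.7) and the lowest Ercc1 levels (6.86 to 9.53) of the GCR group.

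The nucleotide excision genes did not move as a block in GCR mice. Ercc4, the catalytic partner of Ercc1 in the same nuclease, had a log2 fold change of 0.26 (SE 0.11, adjusted p = 0.0834, edgeR), with 15.5 to 27.9 TMM-scaled CPM in GCR mice and 15.9 to 20.6 in mock mice. Its estimate was above 0 and that of Ercc1 below. Xpa averaged 16.5 ± 2.63 TMM-scaled CPM in GCR mice and 18.3 ± 8.21 in mock mice (SD, n = 7 each).

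In the other pathways no gene but Xrcc4 passed against mock after cosmic rays. In base excision repair 9 of 10 estimates were below 0, with a median log2 fold change of -0.31, and 0 of 10 passed. Parp2, which binds strand breaks, was nearest to passing at -0.43 (adjusted p = 0.0521, edgeR). In break sensing and recombination 7 estimates were above 0 and 7 below, and the checkpoint kinase Chek1 was nearest at 0.84 (adjusted p = 0.0883), with 0.759 to 6.55 TMM-scaled CPM in GCR mice and 1.33 to 2.12 in mock mice. Counted without adjustment, 11 of the 40 genes had p under 0.05, against 34.4% of all genes.

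Silicon ions against mock called 0 of the 40 repair genes and 0 of all genes tested (0%) with edgeR, 9 of the 40 at an unadjusted p under 0.05, and H2afx alone with DESeq2, which called 425 of all genes. At that p there were 12.9% of all genes. Of the 40 estimates 30 were above 0, with a median of 0.22, beside 59.5% above 0 and a median of 0.07 over all genes. H2afx (mm10, chromosome 9, 44334694 to 44336077, plus strand) had 21.5, 25 and 50.6 TMM-scaled CPM as lowest, median and highest in silicon mice, against 11, 19.5 and 23.6 in mock mice. Its log2 fold change was 0.68 (SE 0.17, adjusted p = 0.0897, edgeR) and 0.67 in DESeq2 (adjusted p = 0.0199). The groups overlapped, and the top silicon library was the lymphoid-rich replicate 3.

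Next to H2afx, the smallest p above 0 in silicon mice belonged to Parp1 and Trp53bp1, and the smallest below 0 to Xpa, Rad52 and Rad50. Parp1, which makes poly(ADP-ribose) at breaks, stood at a log2 fold change of 0.56 (adjusted p = 0.234, edgeR), and Trp53bp1, a break-site chromatin reader that favours end joining, at 0.29 (adjusted p = 0.285). Xpa was below mock at -0.39 (adjusted p = 0.286), beside Rad52, a recombination mediator, at -0.22 (adjusted p = 0.623), and Rad50 at -0.22 (adjusted p = 0.659). None of these passed. The summed level of 12 proliferation markers was 64.9 to 389 CPM in silicon mice and 63.9 to 193 CPM in mock mice.

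Gamma rays against mock called 0 of the 40 repair genes with edgeR, with DESeq2 and with voom. Of all genes, 5 (0.0295%) were called with edgeR, 259 with DESeq2 and 238 with voom. At an unadjusted p under 0.05 (edgeR) there was 1 of the 40, Rad52, beside 10% of all genes. Of the 40 estimates 11 were above 0, with a median of -0.09, beside 48.5% above 0 over all genes. Rad52 (mm10, chromosome 6, 119902698 to 119922828, plus strand) measured 9.24, 9.77, 6.14, 7.88 and 8.88 TMM-scaled CPM in the gamma mice, against 9.87, 10.7 and 19.5 as lowest, median and highest in mock mice. Every gamma library lay below every mock library, a separation that 1.03% of all genes showed in either direction, and the nearest values, 9.77 and 9.87, almost met. The log2 fold change was -0.52 (SE 0.17, adjusted p = 0.27, edgeR). Elsewhere Polb stood at -0.44 (adjusted p = 0.582), Mutyh at -0.44 (adjusted p = 0.606), and the oxoguanine glycosylase Ogg1 at 0.41 (adjusted p = 0.668), the widest estimate above 0. Lig3 at 0.18 (adjusted p = 0.748) and Xrcc5 at 0.14 (adjusted p = 0.766) were the next above 0 by p.

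**Figure D3:**
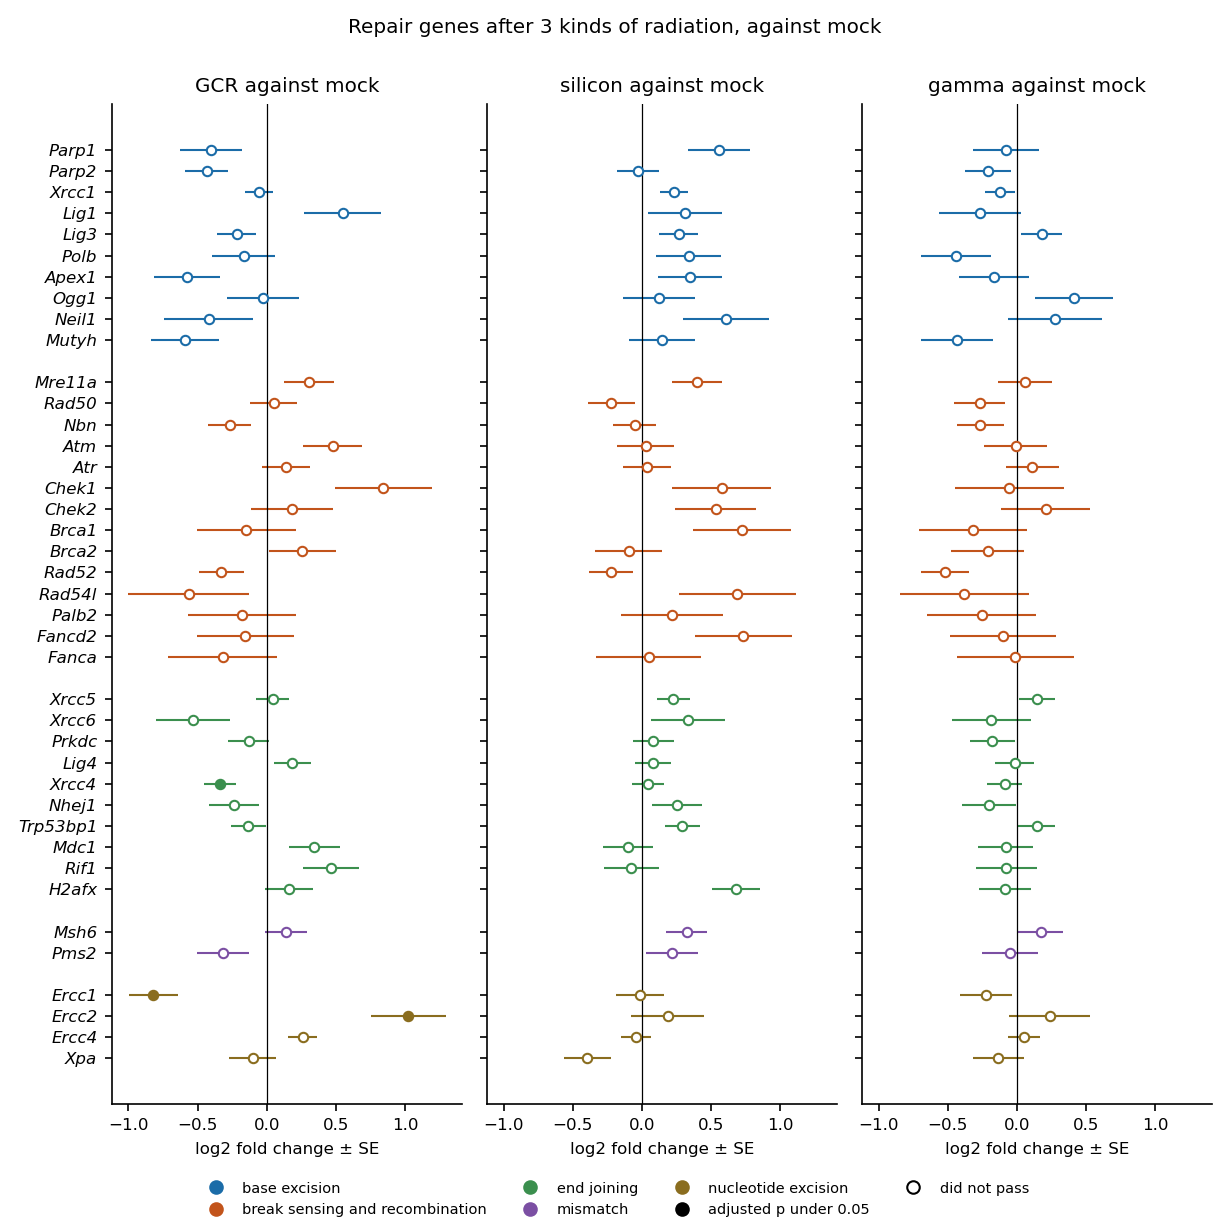
Log2 fold change with its standard error for the 40 repair genes in GCR, silicon and gamma mice, each against the same 7 mock mice, with colours for pathways. Filled points passed at an adjusted p under 0.05, which Ercc1, Ercc2 and Xrcc4 did in GCR mice and no gene did in silicon or gamma mice.

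The 3 radiation types share the mock mice, so their estimates were set side by side and then compared directly. For Parp1 the log2 fold changes against mock were -0.40 in GCR, 0.56 in silicon and -0.08 in gamma mice. For H2afx they were 0.16 in GCR, 0.68 in silicon and -0.09 in gamma mice. For Ercc1 they were -0.82 in GCR, -0.01 in silicon and -0.23 in gamma mice.

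Among the 3 direct comparisons of radiation types, repair genes were called with edgeR between GCR and silicon mice and in neither of the others. In this comparison, 19 of the 40 genes (47.5%) were called by edgeR, 16 lower and 3 higher in GCR mice, while 35.3% of all genes were called, 21.2% lower and 14.1% higher. The median log2 fold change of the 40 genes was -0.32, and that of all genes was -0.08. Of the 40 estimates 12 were above 0, beside 45.3% of all genes, and 23 had an unadjusted p under 0.05, beside 46.2% of all genes. With Rn45s left out of the table, 10 were called lower and 4 higher, beside 5876 of all genes. Of the 19, 13 stayed called, and Parp2, Xrcc1, Fancd2, Nhej1, H2afx and Pms2 were no longer called (adjusted p from 0.0501 to 0.0742, edgeR). With voom and sample weights 12 were called, beside 5844 of all genes, of which 7 were among the 19 (Parp1, Lig3, Apex1, Fancd2, Xrcc6, Xrcc4 and Ercc1). The called genes were 7 of 10 in base excision repair, 2 of 14 in break sensing and recombination, 6 of 10 in end joining, 1 of 2 in mismatch repair and 3 of 4 in nucleotide excision repair.

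The 7 base excision genes called were all lower in GCR mice. Parp1 (mm10, chromosome 1, 180568924 to 180601254, plus strand) had 20.5, 26.9 and 35 TMM-scaled CPM as lowest, median and highest in GCR mice, against 32.9, 42.3 and 88.6 in silicon mice, so the groups met only between 32.9 and 35. Its log2 fold change was -0.96 (SE 0.22, adjusted p = 0.00331, edgeR). Apex1, the endonuclease that cuts at the missing base, averaged 2.14 ± 0.621 TMM-scaled CPM in GCR mice and 4.11 ± 1.18 in silicon mice (SD, n = 7 each), with a log2 fold change of -0.93 (adjusted p = 0.00503). Neil1, a glycosylase for oxidised bases, ranged from 1.66 to 12.0 in GCR mice and from 6.99 to 26.3 in silicon mice, with a log2 fold change of -1.03 (adjusted p = 0.0146) that was -0.68 without silicon replicate 3 (adjusted p = 0.0676). Lig3, the ligase that binds Xrcc1, had a log2 fold change of -0.48 (adjusted p = 0.00942), and Xrcc1 itself -0.29 (adjusted p = 0.0251). Mutyh and Parp2 completed the list at -0.73 (adjusted p = 0.0182) and -0.40 (adjusted p = 0.0372). With voom Neil1 stood at -0.15 (adjusted p = 0.6), Mutyh at -0.26 (adjusted p = 0.287) and Parp2 at -0.13 (adjusted p = 0.361). The replicative ligase Lig1 was not called, with 11 to 33.8 TMM-scaled CPM in GCR mice and 10.1 to 30.6 in silicon mice.

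In end joining, 5 genes fell and 1 rose in GCR mice relative to silicon mice. Trp53bp1 (mm10, chromosome 2, 121193281 to 121271407, minus strand) had 15, 24.4 and 26.9 TMM-scaled CPM as lowest, median and highest in GCR mice, against 26.9, 29.1 and 33.9 in silicon mice. It was the only one of the 40 genes whose groups did not overlap here, as 4.89% of all genes did not in either direction, although the values meet at 26.9 when rounded. Its log2 fold change was -0.43 (SE 0.12, adjusted p = 0.0105, edgeR). The Ku subunit Xrcc6 averaged 15.9 ± 3.37 in GCR mice and 29.1 ± 7.01 in silicon mice (SD, n = 7 each), a log2 fold change of -0.87 (adjusted p = 0.0123), while the estimate of its partner Xrcc5 did not pass.

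Xrcc4 and its paralogue Nhej1, which bridge the ends for ligation, had log2 fold changes of -0.38 (adjusted p = 0.0126, edgeR) and -0.49 (adjusted p = 0.0322). H2afx had 14.5 to 25.5 TMM-scaled CPM in GCR mice and 21.5 to 50.6 in silicon mice, a log2 fold change of -0.52 (adjusted p = 0.021). Rif1, which acts with Trp53bp1 to limit end resection, was the gene that rose, with 52.4, 87.1 and 142 as lowest, median and highest in GCR mice, against 45.4, 59.4 and 75.1 in silicon mice. Its log2 fold change was 0.54 (adjusted p = 0.033), and 0.21 with voom (adjusted p = 0.227). With voom the log2 fold changes of Trp53bp1 and Nhej1 were -0.24 (adjusted p = 0.0608) and -0.30 (adjusted p = 0.0906), and that of H2afx was -0.34 (adjusted p = 0.0506).

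Of the recombination genes, Rad54l and Fancd2 were lower in GCR mice. Fancd2, whose modified form marks stalled forks, averaged 1.87 ± 0.688 TMM-scaled CPM in GCR mice and 3.46 ± 0.991 in silicon mice (SD, n = 7 each), a log2 fold change of -0.89 (adjusted p = 0.0469, edgeR). Rad54l ranged from 0.196 to 4.03 in GCR mice and from 1.65 to 9.84 in silicon mice, a log2 fold change of -1.25 (adjusted p = 0.0246). Leaving out each library in turn kept the call of Fancd2 in 2 of 14 fits and that of Rad54l in 8 of 14, with Rad54l at -0.78 without silicon replicate 3 (adjusted p = 0.124), and voom put Rad54l at -0.38 (adjusted p = 0.345). The sensors Mre11a, Rad50 and Nbn and the kinases Atm, Atr, Chek1 and Chek2 did not pass. Pms2 was lower at -0.53 (adjusted p = 0.0269), and at -0.16 with voom (adjusted p = 0.385).

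In nucleotide excision repair the subunits of 1 nuclease were called in opposite directions. Ercc1 was lower in GCR mice than in silicon mice by a log2 fold change of -0.81 (SE 0.17, adjusted p = 0.00245, edgeR), with 17.7 to 27.5 TMM-scaled CPM in silicon mice. Its nuclease partner Ercc4 (mm10, chromosome 16, 13109684 to 13150617, plus strand) was higher at 0.30 (adjusted p = 0.0261), with a median of 22.3 TMM-scaled CPM in GCR mice and 16.8 in silicon mice. Ercc2 was higher at 0.84 (adjusted p = 0.0163). With voom Ercc4 stood at 0.14 (adjusted p = 0.232) and Ercc2 at 0.31 (adjusted p = 0.222).

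Markers of muscle, squamous epithelium, proliferating and lymphoid cells and pre-ribosomal RNA moved with the same contrast. The 7 skeletal muscle markers summed to 34 to 98.8 CPM (median 42.6) in GCR mice and to 102 to 69881 CPM (median 21193) in silicon mice, with no overlap. The 3 squamous epithelium markers summed to 2.12 to 18.3 CPM (median 3.26) in GCR mice and to 20.8 to 1507 CPM (median 915) in silicon mice, also with no overlap. The 12 proliferation markers summed to 55.6 to 153 CPM (median 62.1) in GCR mice and to 64.9 to 389 CPM (median 166) in silicon mice, the 5 B cell markers to 17 to 217 CPM in GCR mice and 42.6 to 1786 CPM in silicon mice, and the 6 T cell markers measured to 8.60 to 50.6 CPM in GCR mice and 13.6 to 681 CPM in silicon mice. Rn45s ran from 21561 to 216521 CPM in GCR mice and from 18146 to 46939 CPM in silicon mice. Most lung cell markers had a higher median in GCR than in silicon mice, with overlapping ranges. Median summed CPM was 490 and 241 for endothelium, 1925 and 1152 for alveolar type 1, and 15703 and 8617 for alveolar type 2 cells. It was 170742 and 97263 for club and 687 and 429 for ciliated cells, while macrophage markers were lower at 38.8 and 65.4. With the proliferation markers as a covariate 0 of the 40 genes were called, beside 3 genes in the whole table. Fancd2 then stood at -0.10 (adjusted p = 0.885, edgeR), Parp1 at -0.41 (adjusted p = 0.207), and Ercc1 at -0.68 (adjusted p = 0.0993). Without the 4 high-Rn45s libraries 0 of the 40 and 0 of all genes were called. There Parp1 stood at -0.96 (adjusted p = 0.0814), as far from 0 as with all libraries, Ercc2 at 0.12 (adjusted p = 0.714) and Rif1 at 0.13 (adjusted p = 0.621). Without the 3 lymphoid-rich libraries 12 of the 40 were called, 10 of them among the 19, beside 4658 of all genes. Rad54l then stood at -0.51 (adjusted p = 0.322, edgeR) and H2afx at -0.26 (adjusted p = 0.227). With 2 silicon mice left, without the muscle-rich libraries, 3 of the 40 were called, H2afx, Neil1 and Parp1. Each of the 19 genes kept its sign in all of these fits, and the part of cell content in the differences was not tested further. That of the number of genes detected was not tested.

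**Figure D4:**
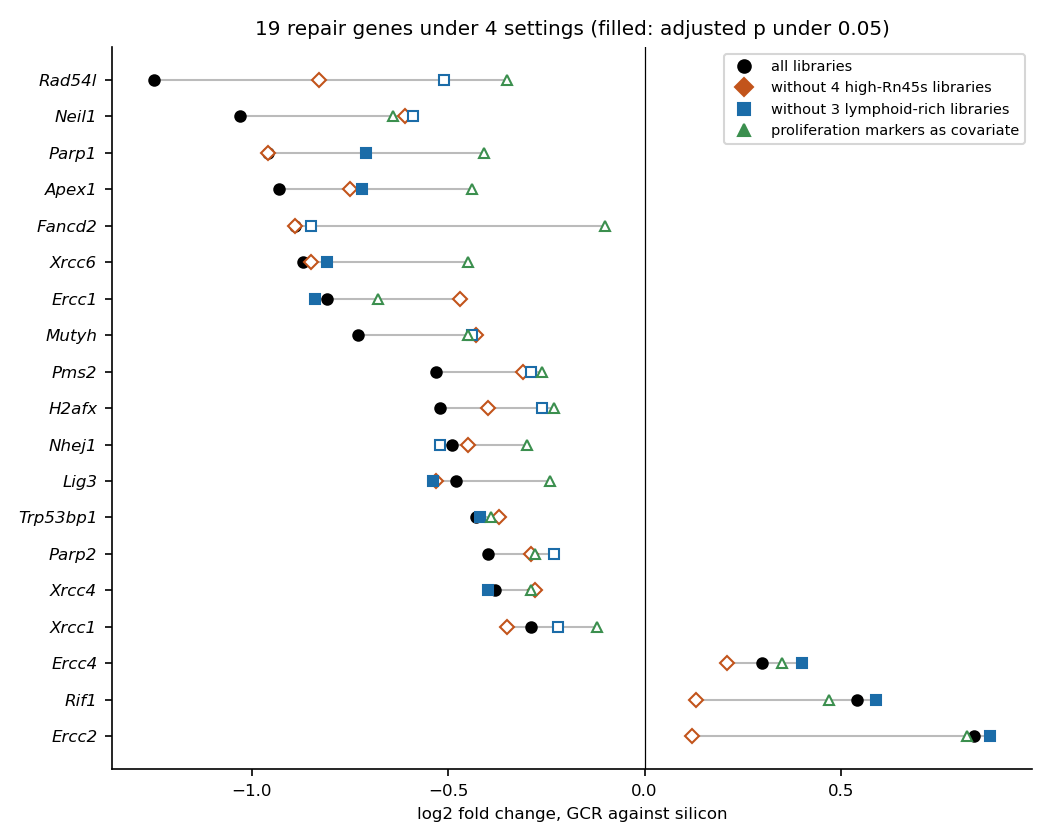
Log2 fold change of the 19 called repair genes in GCR mice against silicon mice with all libraries, without the 4 high-Rn45s libraries, without the 3 lymphoid-rich libraries, and with proliferation markers as a covariate. Filled symbols passed at an adjusted p under 0.05. The green triangle of Fancd2 lies at -0.10 and the orange diamonds of Rif1 and Ercc2 at 0.13 and 0.12, and every gene keeps its sign in the 4 fits.

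Some of these genes share exon sequence with a neighbour on the opposite strand, and the library kit does not mark strand. Tubgcp4 overlaps 15% of the exon bases of Trp53bp1 and was itself lower in GCR mice than in silicon mice at a log2 fold change of -0.83 (adjusted p = 0.00371, edgeR). Rffl overlaps 25.1% of Lig3 and stood at -0.60 (adjusted p = 0.0432), and Lrrc41 overlaps 15.4% of Rad54l and stood at -0.48 (adjusted p = 0.0474). For Ercc2, Klc3 overlaps 17.8% and moved the other way at -1.02 (adjusted p = 0.0856), and Cd3eap overlaps 3.4% of Ercc1 and stood at -0.76 (adjusted p = 0.0147). Reads in these stretches cannot be told apart.

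GCR mice against gamma mice gave 0 called repair genes with edgeR, beside 5.7% of all genes (2.66% higher and 3.04% lower), 8 of the 40 at an unadjusted p under 0.05 (25.7% of all genes), 2 of 40 with DESeq2 (2061 of all genes) and 1 of 40 with voom (192 of all genes). Ercc1 was again the nearest, at a log2 fold change of -0.59 (SE 0.19, adjusted p = 0.0517, edgeR), with 6.86 to 20.4 TMM-scaled CPM in GCR mice and 14.2 to 22.7 in gamma mice. Estimates above 0 numbered 20 of 40, beside 47.2% of all genes. DESeq2 called it at -0.57 (adjusted p = 0.0323), along with Lig1 at 0.82 (adjusted p = 0.0458). Ercc2 stood at 0.79 (adjusted p = 0.0881, edgeR), Rif1 at 0.54 (adjusted p = 0.112), Lig3 at -0.39 (adjusted p = 0.0956) and Trp53bp1 at -0.27 (adjusted p = 0.195). The gene called with voom was Lig3, at -0.47 (adjusted p = 0.0265). With the proliferation markers as a covariate edgeR called 3 of the 40, Parp1 at -0.56 (adjusted p = 0.0435), Lig3 at -0.50 (adjusted p = 0.0256) and Ercc1 at -0.66 (adjusted p = 0.0299), beside 2081 of all genes. Without the high-Rn45s libraries 0 of the 40 and 0 of all genes were called.

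Silicon mice against gamma mice also gave 0 called repair genes with edgeR, beside 0.247% of all genes and 9 of the 40 at an unadjusted p under 0.05 (19.6% of all genes). DESeq2 called 3 of the 40 and 1175 of all genes, and voom with sample weights 12 of the 40 and 5231 of all genes. H2afx measured 21.5 to 50.6 TMM-scaled CPM in silicon mice and 16.1, 18.7, 16.8, 16.2 and 20.5 in the gamma mice, so the groups did not overlap, as in 2.43% of all genes in either direction. The proliferation markers of the same groups did not overlap either, at 64.9 to 389 summed CPM in silicon mice and 36.3 to 64.7 in gamma mice, and the median of the skeletal muscle markers was 21193 summed CPM in silicon mice and 43.0 in gamma mice. The log2 fold change of H2afx was 0.77 (SE 0.19, adjusted p = 0.059, edgeR), and 0.75 in DESeq2 (adjusted p = 0.00689). Without the muscle-rich libraries, with 2 silicon and 5 gamma mice left, it was 1.06 (adjusted p = 0.0413, edgeR). With the proliferation markers as a covariate 0 of the 40 and 0 of all genes were called with edgeR. The part of these markers in the H2afx difference was not tested further. DESeq2 also called Xrcc1 at 0.34 (adjusted p = 0.034) and Polb at 0.77 (adjusted p = 0.0493), and Polb ran from 38.3 to 78.7 TMM-scaled CPM in silicon mice and from 26.9 to 38.7 in gamma mice. Below 0 stood Ogg1 at -0.29 (adjusted p = 0.613, edgeR), Xpa at -0.26 (adjusted p = 0.45) and Ercc4 at -0.10 (adjusted p = 0.699). Of the 40 estimates 33 were above 0, with a median of 0.24, beside 51.6% above 0 and a median of 0.02 over all genes.

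Nicotinamide riboside alone, mock + NR against mock, gave 0 called repair genes and 0% of all genes with edgeR, and 3 of the 40 at an unadjusted p under 0.05 (16.9% of all genes). Estimates above 0 numbered 24 of 40, beside 48.5% of all genes. The Ku subunit Xrcc5 stood at a log2 fold change of 0.46 (SE 0.13, adjusted p = 0.102, edgeR) and Trp53bp1 at 0.43 (SE 0.13, adjusted p = 0.111). DESeq2 called both, at 0.46 and 0.43, and so did voom, at 0.42 and 0.36, in fits that called 591 (DESeq2) and 994 (voom) of all genes. Trp53bp1 measured 28.4, 35.2, 41.4, 31.2 and 27.6 TMM-scaled CPM in mock + NR mice, against 20.8, 24.2 and 27.9 as lowest, median and highest in mock mice, and the groups overlapped by 1 library. Lung cell markers differed too, with overlapping ranges. The median summed CPM of endothelium markers was 146 in mock + NR and 530 in mock mice. For alveolar type 1 markers it was 789 and 2015, and for type 2 markers 6229 and 14560. For club cell markers it was 194650 and 106613, and for ciliated cell markers 712 and 351. The part of cell content in the NR estimates was not tested further.

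Ogg1, which removes oxidised guanine, measured 12.4, 10.5, 21.1, 10.6 and 11.9 TMM-scaled CPM in mock + NR mice, against 2.95, 8.27 and 9.57 as lowest, median and highest in mock mice. Every mock + NR library lay above every mock library, as in 1.73% of all genes in either direction. The log2 fold change was 0.81 (SE 0.28, adjusted p = 0.132, edgeR). Below 0 the smallest p belonged to Rad52 at -0.28 (adjusted p = 0.459), Lig4 at -0.16 (adjusted p = 0.682) and Nbn at -0.19 (adjusted p = 0.677). The NAD consumers Parp1 and Parp2 stood at 0.05 (SE 0.24, adjusted p = 0.97) and -0.04 (SE 0.17, adjusted p = 0.967).

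Silicon + NR against silicon gave 0 called repair genes and 0% of all genes with edgeR, 6 of the 40 at an unadjusted p under 0.05 (12.8% of all genes), 0 with DESeq2 (353 of all genes) and 10 with voom (4207 of all genes). Parp1 was nearest at a log2 fold change of -0.69 (SE 0.23, adjusted p = 0.179, edgeR) and -0.66 in voom (adjusted p = 0.00569). Fanca stood at 0.85 (adjusted p = 0.36, edgeR), H2afx at -0.41 (adjusted p = 0.335), and Mutyh at -0.53 (adjusted p = 0.358). Ogg1 stood at 0.45 (adjusted p = 0.49) and Xpa at 0.27 (adjusted p = 0.53). The 10 voom calls were 3 higher and 7 lower. Fanca was higher at 1.19 (adjusted p = 0.00198, voom), Ogg1 at 0.62 (adjusted p = 0.0127) and Xpa at 0.36 (adjusted p = 0.017). Lower beside Parp1 were Polb, Apex1, Mre11a, Xrcc6, Lig4 and H2afx, from -0.73 to -0.32 (adjusted p from 0.00382 to 0.0484, voom). By edgeR, estimates above 0 numbered 12 of 40, beside 43.3% of all genes. H2afx measured 16.9 to 30.6 TMM-scaled CPM in silicon + NR mice and 21.5 to 50.6 in silicon mice. The 12 proliferation markers had a median of 71.6 summed CPM in silicon + NR mice and 166 in silicon mice, with overlapping ranges. Muscle-rich libraries were 2 of 6 and 5 of 7, and lymphoid-rich libraries 0 of 6 and 2 of 7. The part of cell content in these differences was not tested further.

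Silicon + NR against mock + NR gave 0 called repair genes and 0% of all genes with edgeR. DESeq2 called 0 of the 40 and 1 of all genes, and voom 0 of the 40 and 0 of all genes. At an unadjusted p under 0.05 edgeR had 0 of the 40 (2.16% of all genes). The estimates ran from -0.40 to 0.30 on the log2 scale, 8 of them above 0 beside 48.8% of all genes, with Pms2 at -0.33 (SE 0.21), the break-end nuclease Mre11a at -0.26 (SE 0.20), Prkdc at -0.21 (SE 0.17), Fanca at 0.30 (SE 0.44), Polb at 0.22 (SE 0.26) and Ercc2 at 0.21 (SE 0.30), all at an adjusted p of 1.0.

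The difference between the silicon effects with and without NR was tested directly, as an interaction. It called 0 of the 40 genes and 0% of all genes with edgeR, and 5 of the 40 at an unadjusted p under 0.05 (9.95% of all genes). DESeq2 called 0 of the 40 and 327 of all genes, and voom 0 of the 40 and 0 of all genes. With edgeR H2afx had the smallest p, at -0.75 on the log2 scale (SE 0.26, adjusted p = 0.19). Then came Mre11a at -0.66 (adjusted p = 0.32) and Parp1 at -0.74 (adjusted p = 0.399). Above 0 were Xpa at 0.33 (adjusted p = 0.859), and Fanca at 0.25 and Rad52 at 0.17 (adjusted p = 1.0 for both). Of the 40 estimates 8 were above 0, with a median of -0.29, beside 40.5% above 0 and a median of -0.08 over all genes. Without the muscle-rich libraries, with 2 silicon, 4 silicon + NR, 3 mock and 3 mock + NR mice left, H2afx and Parp1 were called. They stood at -1.11 (adjusted p = 0.0499, edgeR) and -1.53 (adjusted p = 0.044), beside 1335 of all genes. The 2 silicon mice left were replicate 1 and the lymphoid-rich replicate 3. Their levels were 27.8 and 50.6 TMM-scaled CPM of H2afx, and 32.9 and 88.6 of Parp1.

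Another 72 repair genes, not among the 40, were listed by the same pathways, and 67 were tested. In GCR mice against mock 10 of 67 (14.9%) were called, 5 higher and 5 lower, beside 16.6% of all genes. The ubiquitin ligase Rnf8, which marks chromatin at breaks, was higher at a log2 fold change of 1.1 (SE 0.23, adjusted p = 0.0069, edgeR). Parg, which removes poly(ADP-ribose), was lower at -0.42 (adjusted p = 0.0198), as was the TFIIH subunit Gtf2h2 at -0.56 (adjusted p = 0.0247). Against silicon 22 of 67 (32.8%, beside 35.3% of all genes) were called in GCR mice, 9 higher and 13 lower, among them the damage sensor Xpc, higher at 0.63 (adjusted p = 0.00281), and the flap endonuclease Fen1, lower at -1.14 (adjusted p = 0.00352). Against gamma 3 of 67 (4.48%, beside 5.7% of all genes) were called in GCR mice, all higher, namely Rnf8 at 0.97 (adjusted p = 0.0349), the nuclease scaffold Slx4 at 0.82 (adjusted p = 0.0394) and the nuclease Dclre1c at 0.82 (adjusted p = 0.0494). In the other 7 comparisons 0 of 67 were called with edgeR.

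Recombination works in dividing cells, so each repair gene was set against the proliferation marker Mki67 across the 37 mice, after the means of group and sex were removed from log2 levels. Of the 40 genes 13 (32.5%) correlated with Mki67 at a permutation p adjusted over all 16976 genes under 0.05, 11 with a positive and 2 with a negative r, beside 24% of all genes, 12% in each direction. By Spearman's rho 9 of the 40 passed, and the share of all genes was not counted. The permutations made no allowance for the means of group and sex that had been removed. These p-values are therefore too small, for the 40 genes and for all genes alike, and calls near 0.05 are the least secure. The r was above 0 for 30 of the 40 (75%), beside 45.4% of all genes, and its median was 0.24, beside -0.05 over all genes.

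The genes with the highest r were Fancd2 (r = 0.62, permutation p = 4e-05, adjusted p = 0.00126, rho = 0.60 with adjusted permutation p = 0.00377) and Brca2, which loads the recombinase (r = 0.60, permutation p = 0.00012, adjusted p = 0.00251, rho = 0.64 with adjusted permutation p = 0.00197). Polb followed at r = 0.57 (adjusted permutation p = 0.0038) and Parp1 at r = 0.53 (adjusted permutation p = 0.00697). Then came the kinase Prkdc at 0.48, Rad50 at 0.47, Xrcc1 at 0.45, Mre11a and Rad52 at 0.44, and Apex1 and Lig1 at 0.42, with adjusted permutation p from 0.0189 to 0.0433. Ogg1 (r = -0.54, adjusted permutation p = 0.00717) and Fanca (r = -0.50, adjusted permutation p = 0.0116) ran the other way. Brca1 (r = 0.13) and the checkpoint kinase Chek2 (r = -0.17) did not pass.

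Without the 2 libraries farthest from the median of Mki67, silicon + NR replicate 1 and mock + NR replicate 3, all 13 kept their sign, with an r of at least 0.39 in size. Within the 13 muscle-rich libraries and within the other 24, Fancd2 had an r of 0.68 and 0.42, Brca2 0.18 and 0.80, Polb 0.77 and 0.16, and Parp1 0.40 and 0.49. In each of these subsets the means of group and sex were those of all 37 libraries and were not fitted again. Ercc1, with a pooled r of -0.03, had 0.46 in the muscle-rich libraries and -0.36 in the others. On CPM of library totals without TMM scaling, 4 of the 40 passed in place of 13. The share of all genes was not counted there, so this drop cannot be set against the background.

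**Figure D5:**
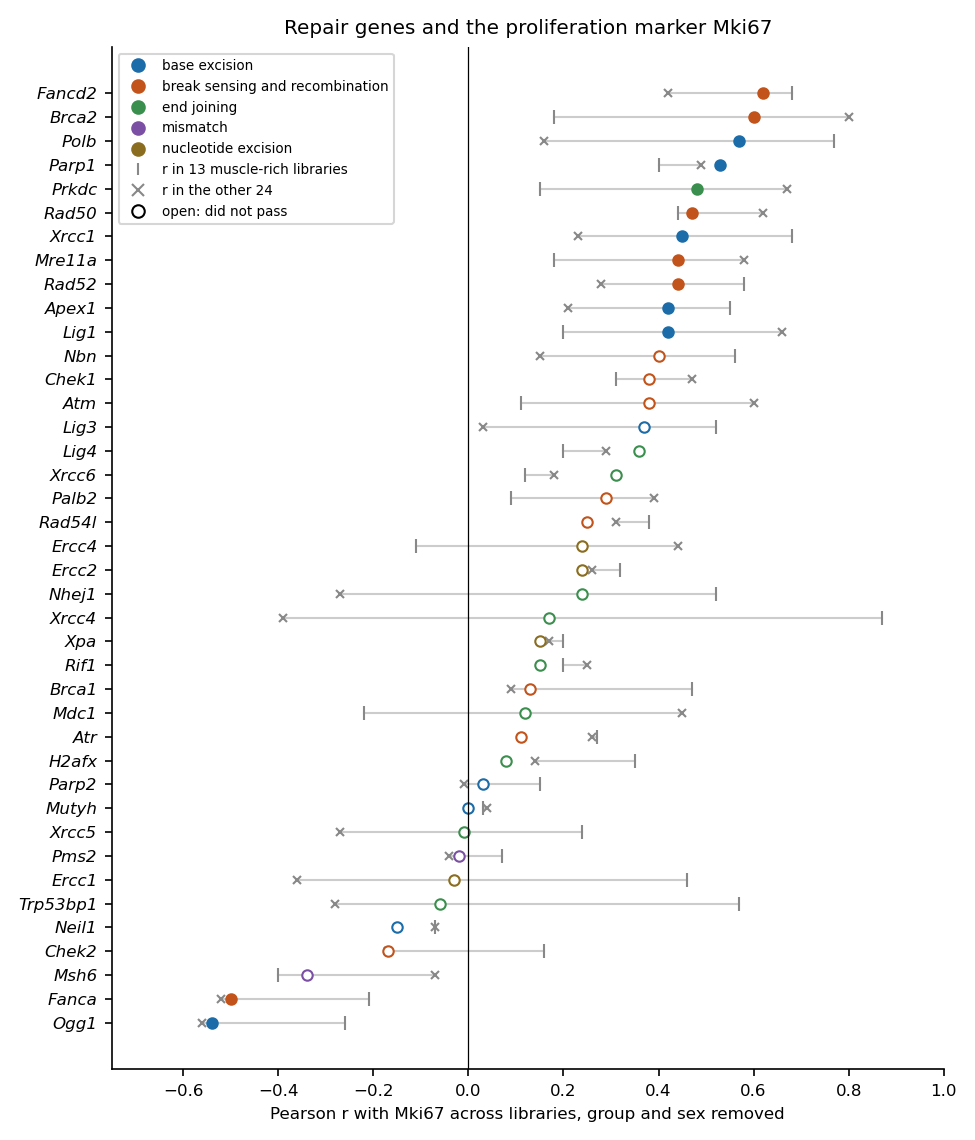
Pearson r between each repair gene and Mki67 over 37 libraries, on log2 TMM-scaled CPM with group and sex removed, ordered by r, with filled points for genes that passed at an adjusted permutation p under 0.05. Grey marks give the r in 13 muscle-rich libraries and in the other 24, with group and sex means of all 37 libraries removed. Fancd2 at 0.62 and Ogg1 at -0.54 are the ends of the order.

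E2F factors switch on genes for DNA synthesis as cells divide, and promoters of the repair genes were searched for the letters TTTCCCGC, TTTGGCGC, TTTCGCGC and TTTGCCGC on both strands. The RefSeq table of promoters (GRCm38.p6, 250 bases before to 50 after each start) held 38 windows for 33 of the 40 genes, and the genes not matched there were Polb, Rad50, Nbn, Fancd2, Prkdc, Rif1 and H2afx. At least 1 of these motifs stood in 6 of 33 repair genes (18.2%), namely Chek2, Brca2, Lig1, Xrcc6, Mdc1 and Msh6, and in 704 of 27025 genes of the table (2.6%). CCAAT, in either strand, stood in 55.3% of the 38 windows and in 37.4% of all windows. The 6 genes with 1 of these exact E2F letter strings had r values with Mki67 from -0.34 to 0.60 (median 0.22). The 27 with none of them had -0.54 to 0.53 (median 0.24), so the ranges overlapped. Near matches were not counted, so these 27 may hold other E2F sites, and the base composition of the windows was not compared.

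The motif in 3 of these promoters is shown because they hold the same letters on the same strand, upstream of the start, while their r with Mki67 was 0.60 for Brca2, 0.31 for Xrcc6 and -0.17 for Chek2. The capitals mark GCGGGAAA, the reverse complement of TTTCCCGC, in 120-base stretches of the plus strand of GRCm38.p6, for Brca2 at chr5:150522397-150522516, for Xrcc6 at chr15:82016267-82016386 and for Chek2 at chr5:110839775-110839894. The first base of the motif lies at position -168 from the RefSeq start in Brca2, -46 in Xrcc6 and -152 in Chek2.
Brca2: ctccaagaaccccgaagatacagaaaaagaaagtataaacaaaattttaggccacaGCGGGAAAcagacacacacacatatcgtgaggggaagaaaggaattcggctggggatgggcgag
Xrcc6: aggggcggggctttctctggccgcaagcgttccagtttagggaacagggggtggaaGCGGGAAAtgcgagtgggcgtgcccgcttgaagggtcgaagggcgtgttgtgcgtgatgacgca
Chek2: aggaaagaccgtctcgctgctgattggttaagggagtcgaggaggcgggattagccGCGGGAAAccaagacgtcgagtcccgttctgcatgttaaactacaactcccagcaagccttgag
A match to these letters is a description of the sequence and says nothing of whether a factor is bound there.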

How the data were processed

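The authors deposited raw counts of reads, 1 value per gene symbol and mouse, with no normalization, with FastQC 0.11.4, MultiQC 1.12, Trimmomatic 0.36, STAR 2.5.2, HTSeq 0.13.5 and build mm10 listed in the submitters' processing notes. No source used here gives the annotation, the strand option or the rule for reads that match more than 1 gene. Per the labels' protocols, SMART-seq v4 cDNA was made into Nextera XT libraries. No molecular identifiers are named there, so reads are not counted as independent molecules. Each library is 1 mouse, and p-values measure the spread between these mice. Libraries of a group all differed beyond sampling noise (98 pairs, with a chi-square over its degrees of freedom of 19.18 to 1003.2). GCR animals carry another style of ear tag in the labels, and whether they were another cohort cannot be told apart from the radiation.

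Members and lists were chosen with earlier results of these data known. Groups and sex came from the labels, and replicates were numbered by accession, which pairs no mice. The test was edgeR 4.0.16 in R 4.3.3, quasi-likelihood, TMM factors (0.694 to 1.21), filterByExpr (16977 genes), 6 groups and sex over 37 libraries, with Benjamini-Hochberg adjustment over all genes. Named with values were the called members, the 3 members of smallest p in each direction of a comparison, and the highest and lowest level of each pathway. Fancd2, Palb2, Rad54l and others of extreme level, spread or correlation were named after their values were seen. Exon lengths and coordinates are from GENCODE M21. Correlations used TMM-scaled log2 CPM (prior count 2) and 100000 permutations. These shuffled the levels left after group and sex were removed, with no allowance for that removal. The p-values were adjusted over all genes, where an adjustment over the members had been planned. Alternatives were DESeq2 1.42.0, limma 3.58.1 voom with sample weights, other scalings, filters and covariates, a fit with Rn45s left out, and fits without kinds of library or each library in turn. The test was checked on simulated data without differences of tissue content between libraries, which cannot show how such differences act on the calls.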

Additional observations from a re-analysis of the deposited data

Results flagged for a closer look

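Dixon's test asked, in each of 222 groups of 5 to 7 libraries, whether 1 library stood apart from its group, for the 32 members named and the mean of each pathway. Chance alone marks about 1 in 20 groups, and 21 cases stood apart. Values are log2 of TMM-scaled CPM.

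Mock replicate 4, the high-Rn45s mock library, stood apart for 6 genes. It was the highest mock library for Parp2 at 5.43 (4.68 to 4.92 in the others), Lig1 at 4.64 (3.15 to 3.44), Rad52 at 4.29 (3.31 to 3.63), Rif1 at 6.85 (5.62 to 6.01) and Xpa at 5.20 (3.73 to 4.08), and the lowest for Ogg1 at 1.59 (2.79 to 3.27). Mock replicate 2 was the lowest for Lig4 at 2.64 and for Ercc1 at 4.12.

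Mock + NR replicate 4, a lymphoid-rich library, was the highest of its group for Rad50 at 5.35, Rad54l at 2.61, Prkdc at 4.68 and Pms2 at 3.28, and mock + NR replicate 3 was the highest for Ogg1 at 4.40 (3.40 to 3.64 in the others). Silicon replicate 3, also lymphoid-rich, was the highest for Ercc4 at 4.62. In GCR mice replicate 6 was the highest for Rad50 at 5.94, and replicate 1 was the lowest for the mean of the break sensing and recombination genes at 2.04 (2.64 to 2.87 in the others). In gamma mice replicate 3 was the highest for Parp2 at 4.81, for Nhej1 at 2.33 and for the mean of the mismatch repair genes at 3.69. Gamma replicate 2 was the highest for Prkdc at 4.37, and gamma replicate 5 for Rad54l at 1.66.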

How the results depend on the processing

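No paired analysis was possible because replicate numbers were given in accession order. Called members moved by over 1.5 times as follows. In GCR against mock the 3 became 5 with DESeq2, 5 without the lymphoid-rich libraries, 1 with only these groups, and 0 without the muscle-rich or without the high-Rn45s libraries. In GCR against silicon the count of 19 became 12 with voom (7 of them shared), 12 without the lymphoid-rich (10 shared), 8 with only these groups, 3 without the muscle-rich, and 0 without the high-Rn45s libraries or with proliferation markers as covariate. The 0 of GCR against gamma became 2 (DESeq2), 1 (voom) and 3 (proliferation covariate), that of silicon against gamma 3 (DESeq2), 12 (voom) and 1 (without muscle-rich), that of silicon against mock 1 (DESeq2), that of mock + NR against mock 2 (DESeq2) and 2 (voom), that of silicon + NR against silicon 10 (voom), and that of the interaction 2 (without muscle-rich, Parp1 and H2afx). Leaving out each library gave 1 to 8 in GCR against mock (1 without GCR replicate 2, 7 without replicate 4, 8 without replicate 7), 11 to 21 in GCR against silicon (11 without GCR replicate 6), 0 to 5 in GCR against gamma (5 without GCR replicate 4 or gamma replicate 5), and 0 to 1 in silicon against mock, mock + NR against mock and silicon against gamma. Repair genes correlated with Mki67 went from 13 to 4 on plain CPM, with no count over all genes. Small estimates changed sign: Xrcc5 in gamma against mock (-0.06, voom), Polb in silicon + NR against mock + NR (-0.03 without muscle-rich, -0.06 to 0.51 leaving out each library), Fanca in the interaction (-0.02 with the covariate, -0.09 without muscle-rich), Xpa there (-0.07 without muscle-rich) and Ogg1 in silicon against gamma (0.05 and 0.04 in the same fits as Fanca). The cause was not tested.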
